A study of Nicotiana tabacum with 36 samples.

Results

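TOM2A (Nitab4.5_0002055g0160), a tobacco gene whose transcript was more abundant in the cold-resistant cultivar than in the cold-susceptible one, was followed as a single gene, 1 of 35519 genes in the deposited tables. It was chosen by its higher level in YT than in TT in these same libraries, and because it is 1 of the 50 hub genes that the study drew from its brown co-expression module, so the difference between the cultivars is described here without a test. Leaves of five-leaf seedlings of the cultivars Yanyan97 (YT, cold resistance) and Taiyan8 (TT, cold susceptibility) were sampled before cold (0 h) and after 0.5, 1, 2, 4 and 8 h at 4 °C. Each of the 12 groups had 3 libraries, 36 in all, from plants grown on 1/2 MS medium under a 16 h day and an 8 h night. Neither cultivar carried a transgene, each cultivar stood for 1 genotype, and no plants kept warm alongside were analysed here, so that the time in the cold cannot be told apart from the hour of sampling.

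TOM2A stands for TOBAMOVIRUS MULTIPLICATION 2A, a gene named in Arabidopsis, where mutants let tobamoviruses such as tobacco mosaic virus multiply less efficiently. The Arabidopsis protein spans the membrane several times, resembles the tetraspanins, lies in the vacuolar membrane and binds TOM1, another membrane protein on which the viral replication complex depends. Tetraspanins in general organise other membrane proteins into patches. The study's annotation gives the tobacco gene as a tetraspanin family protein whose best Arabidopsis match is TOM2A, and a role in cold is not part of that annotation.

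In the Nitab-v4.5 gene models the gene lies on the minus strand of chromosome 23, from 25944204 to 25950991, a span of 6788 bp. It has 8 exons with a total of 1419 bp, and its introns add up to 5369 bp. The longest intron, of 2372 bp, follows exon 3, and the shortest, of 78 bp, follows exon 5. Reads were counted over all exons together, and no other gene model lies within 39.7 kb of it, so counting without strand mixed no annotated neighbour into its values. Tobacco is an allotetraploid, and how far reads of the other homeologous copy entered or left these counts was not tested. The study designed a qRT-PCR primer pair for the transcript, shown here as the sequence it used. Whether the pair separates this gene from its homeologous copy was not tested. The study reported that most of the brown-module genes it assayed by qRT-PCR did not follow RNA-seq. The outcome for TOM2A was not examined here. The bases are 5′ to 3′, all in lower case since no position is singled out, and the forward primer has 23 bases and the reverse primer 20.

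TOM2A qRT-PCR forward primer: tgcttttcttggtttgtgaagga

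TOM2A qRT-PCR reverse primer: cttgtaggtgcaaccgggta

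The 36 libraries held between 15484160 and 26691552 counts on genes. The shallowest was replicate 3 of YT at 4 h, and the next one up had 22239372. TOM2A was deeply covered, with 2053 to 4076 reads per library in YT and 581 to 942 in TT. Names of leaf marker genes were paired with none of the gene IDs in the tables used here, so the tissue was taken from the labels without a check against markers.

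Before cold, TOM2A was several times more abundant in YT. At 0 h the 3 YT libraries had 146, 143 and 150.3 CPM (counts scaled to a common library size, here with TMM factors), against 26.7, 25.6 and 27.2 CPM in TT. The groups lay far apart and each was tight. YT averaged 146.5 ± 3.71 CPM and TT 26.5 ± 0.83 CPM (SD, n = 3 each), a log2 fold change of 2.47 (SE 0.14), or 5.53-fold.

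The separation was present at every time point in the cold. At 0.5 h the YT libraries had 121, 147.5 and 162 CPM, against 27.5, 29.95 and 29.93 CPM in TT. At 1 h they had 143.5, 133 and 150 CPM in YT, against 32.2, 37.9 and 28.6 CPM in TT. All libraries of YT stayed above those of TT at both times, and the TT values had moved up a little while those of YT scattered around their level at 0 h. At 2 h the values were 134.5, 114 and 129.7 CPM in YT and 30.2, 30.4 and 35.6 CPM in TT. At 4 h they were 142, 153 and 132 CPM in YT and 31.96, 36.04 and 32.1 CPM in TT. The YT libraries at 2 h were the lowest group of that cultivar. At 8 h the YT libraries had 119, 175 and 126.5 CPM, against 33.7, 38.5 and 34.4 CPM in TT. Replicate 2 of YT at 8 h had the highest TOM2A value of all 36 libraries and made the 8 h group the most variable one (SD 30.6 CPM). With TMM factors left out of all libraries (0.848 in this one), it had 148.5 CPM, against 160.7, 159.7 and 158.4 CPM in YT at 0 h. Its deposited TPM was 106.5, also below the YT libraries at 0 h.

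**Figure D1:**
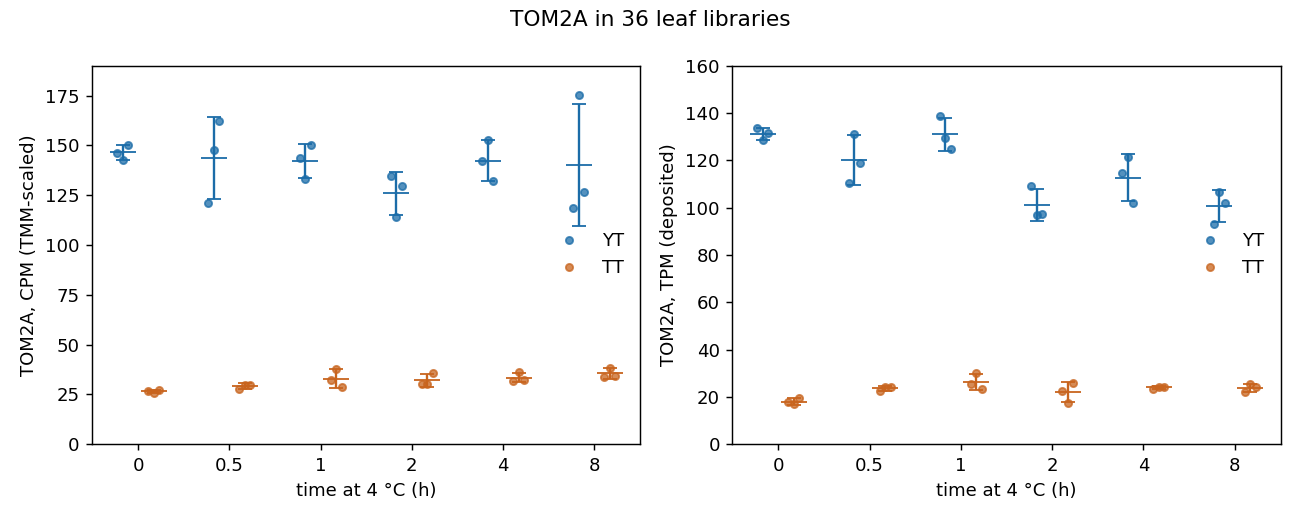
TOM2A in each library (points) with the group mean and SD (bars, n = 3), by hours at 4 °C, as TMM-scaled CPM in the left panel and deposited TPM in the right one, YT left of TT at each time. In CPM all YT libraries lie between 113.8 and 175.1 and all TT libraries between 25.59 and 38.49.

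The difference between the cultivars was largest before cold and smaller at each of the later times. Over 0, 0.5, 1, 2, 4 and 8 h the log2 fold changes of YT over TT were 2.47, 2.30, 2.11, 1.97, 2.09 and 1.98, with standard errors of 0.13 to 0.14, or 5.53-, 4.93-, 4.32-, 3.93-, 4.27- and 3.94-fold. The median of all 23740 genes tested lay within 0.02 of 0 at each of these times. A gene was called, by the limits of the study, where it differed by more than 2-fold (log2 of 1) with an adjusted p under 0.05. In the same order of times, 3.48%, 1.83%, 2.45%, 2.67%, 4.17% and 1.98% of all genes tested were called YT-higher and 2.6%, 2.68%, 2.79%, 2.22%, 2.57% and 1.92% TT-higher. TOM2A was YT-higher at all 6 times, as 0.649% of the genes tested were (0.425% were TT-higher at all 6), which restates how it was chosen. The lowest of the 18 YT libraries was 2.96-fold above the highest of the 18 TT libraries in CPM and 3.09-fold above it in TPM, and 0.687% of the genes tested had all YT libraries above all TT libraries in CPM. In bulk leaf RNA, more transcript per cell and a larger share of cells that express the gene cannot be told apart.

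Ordered by mean CPM, the levels were YT 0 h (146.5), YT 0.5 h (143.6), YT 1 h and YT 4 h (142.3 each), YT 8 h (140.1) and YT 2 h (126.0), followed by TT 8 h (35.5), TT 4 h (33.4), TT 1 h (32.9), TT 2 h (32.1), TT 0.5 h (29.1) and TT 0 h (26.5). Neighbours in this order overlapped in their libraries, apart from YT 2 h and TT 8 h, which were 90.5 CPM apart, and the steps from TT 2 h to TT 0.5 h and from TT 0.5 h to TT 0 h. Of the sum of squares of log2 CPM over the 36 libraries, 97.8% lay between the cultivars, 1.02% between times within a cultivar and 1.21% between replicates. TOM2A was also a steady gene. Its biological coefficient of variation between replicates was 11.9%, against a median of 21.2% over the genes tested, and 7.52% of those genes varied less.

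On the TPM scale, which allows genes to be compared, TOM2A was one of the more abundant leaf transcripts in YT and an average one in TT. Group means lay between 100.5 and 131 TPM in YT and between 18.04 and 26.4 TPM in TT. In YT 90.7% to 93.5% of the genes with at least 1 TPM were less abundant, and in TT 59.1% to 66.2% were.

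The response to cold answers a question that the choice of the gene between cultivars did not use. The study's Results describe the network behind its hub genes as built on genes that changed under cold in at least 1 cultivar. Its Discussion instead names genes that differed between TT and YT. In the calls made here, TOM2A and 39 of the 49 other hubs were called under cold in neither cultivar. In YT, no response of TOM2A to cold passed the test in the TMM-scaled counts. The deposited TPM, described below, gave a lower level at some times. Against 0 h the log2 fold changes of TOM2A in the counts after 0.5, 1, 2, 4 and 8 h were -0.03, -0.04, -0.22, -0.04 and -0.06, each with an SE of 0.13. The smallest adjusted p of these was 0.292, at 2 h, by edgeR's quasi-likelihood test with Benjamini-Hochberg adjustment. The 95% interval at 2 h ran from -0.48 to 0.05, which leaves out a fall to 0.5 of the level at 0 h (log2 of -1). All 3 YT libraries at 2 h lay below the 3 at 0 h in CPM, which was so for 19.1% of the genes tested. Over the same hours 1.57%, 3.93%, 7.91%, 12.6% and 17.3% of all genes were called in YT.

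In TT, TOM2A was slightly higher throughout the cold. All 15 TT libraries in the cold had more TOM2A than each of the 3 at 0 h in CPM, a pattern shown by 6.78% of the genes tested. After 0.5, 1, 2, 4 and 8 h the log2 fold changes against 0 h were 0.14, 0.31, 0.27, 0.33 and 0.42, each with an SE of 0.13. By edgeR's test the adjusted p was 0.00999 at 8 h (1.34-fold, 95% interval on the log2 scale 0.16 to 0.69) and 0.0473 at 4 h (1.26-fold), and it was 0.516, 0.0954 and 0.108 at 0.5, 1 and 2 h. None of these reached the 2-fold change that the study asked of a call, so TOM2A was called at no time in either cultivar, as against 22.4% of the genes tested called at 1 or more times in YT and 29.7% in TT. Time by time, 6.3%, 7.45%, 14.4%, 15.5% and 21.2% of all genes were called in TT. An adjusted p under 0.05 alone was common in TT, with 35.2% of genes at 4 h and 41.4% at 8 h. Without TT 8 h replicate 2 the adjusted p at 8 h was 0.052 by the same edgeR test, and the p at 4 h exceeded 0.05 when any of 24 of the 36 libraries was left out, reaching 0.169 without TT 4 h replicate 2.

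**Figure D2:**
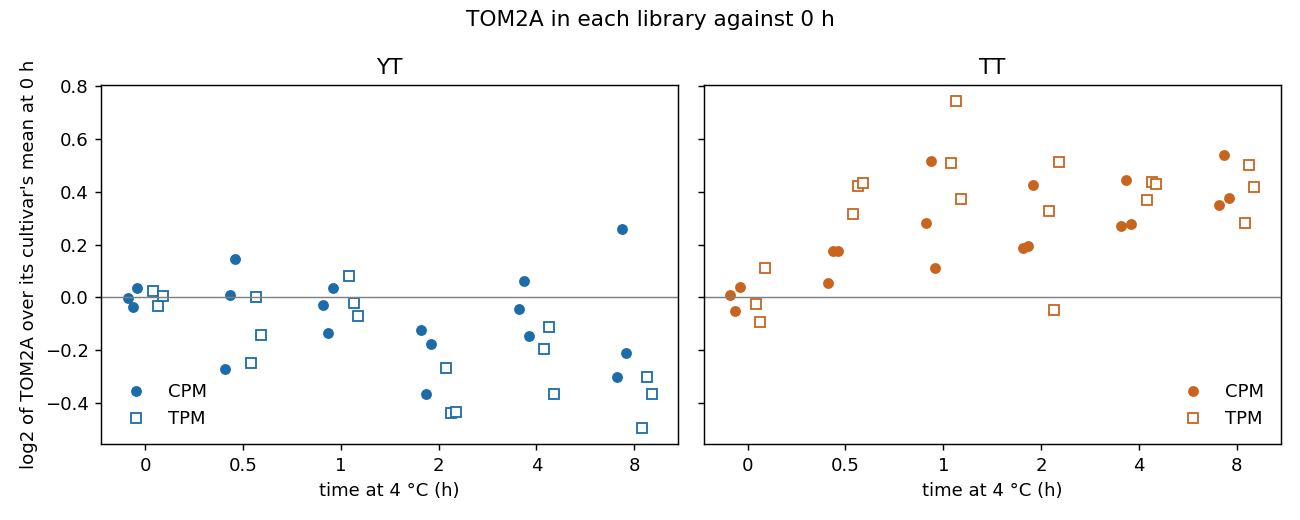
TOM2A in each library as the log2 of its value over the mean of its own cultivar at 0 h, by hours at 4 °C, YT in the left panel and TT in the right one; filled circles are CPM and open squares deposited TPM. In CPM 15 of 15 cold libraries lie above all 0 h libraries in TT and 3 of 15 in YT, where 9 lie below all of them.

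The deposited TPM gave a somewhat different course. In YT the values were 133.5, 128 and 132 TPM at 0 h, 109, 97.0 and 97.2 TPM at 2 h and 93.2, 106.5 and 102 TPM at 8 h. In TT they were 17.7, 16.9 and 19.5 TPM at 0 h, 22.6, 17.4 and 25.7 TPM at 2 h and 21.9, 25.5 and 24.1 TPM at 8 h. In YT, all libraries at 2, 4 and 8 h lay below those at 0 h, and in TT 14 of 15 cold libraries lay above them. The shares of all genes with these patterns in TPM were not counted, so the patterns are a description. In CPM, all YT libraries lay below those at 0 h for 19.1%, 21.6% and 22.4% of the genes tested at 2, 4 and 8 h. On log2(TPM + 1), limma gave YT a log2 change of -0.38 at 2 h (adjusted p = 0.0223, with 19.7% of genes under 0.05) and -0.38 at 8 h (adjusted p = 0.00974, with 41% of genes under 0.05). On this scale the median change over all genes in YT was -0.15 at 2 h and -0.25 at 8 h. Relative to that median TOM2A changed by -0.23 and -0.14, and which of the 2 references is apt was not tested. In TT the same fit gave 0.52 at 1 h (limma adjusted p = 0.00207), where the median of all genes was 0.15, and 0.38 at 8 h (limma adjusted p = 0.0099), where it was 0.03. At these times 16.8% and 39.9% of genes had an adjusted p under 0.05.

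Whether the cultivars responded differently was tested as an interaction, the change in YT minus the change in TT. It was negative at all 5 times, with log2 values of -0.17, -0.35, -0.49, -0.37 and -0.49 after 0.5, 1, 2, 4 and 8 h and an SE of 0.18 each. By edgeR's quasi-likelihood test no adjusted p was under 0.05, the lowest being 0.127 at 2 h and 0.0933 at 8 h. Called interactions made up 1.57%, 0.114%, 1.98%, 0.918% and 4.55% of all genes at the 5 times. At 2 h the YT libraries lay below and the TT libraries above their own 0 h libraries in CPM, as for 0.746% of genes, while in TPM the TT libraries overlapped. The 8 h value depended on 1 library. Without YT 8 h replicate 2, the high library named above, it was -0.68 with an edgeR adjusted p of 0.0234. On log2(TPM + 1) the interaction was -0.63 at 2 h (limma adjusted p = 0.0399) and -0.77 at 8 h (limma adjusted p = 0.00565), where the median of all genes was -0.14 and -0.31 and 2.14% and 10.5% of genes had an adjusted p under 0.05. Relative to that median the values were -0.49 and -0.46, close to those from the counts. All 5 interactions share the 0 h libraries, so their common sign is not 5 separate observations.

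No other tested gene on the scaffold of TOM2A or in the window described below reached its log2 difference between the cultivars at any time. TOM2A was chosen for that difference, so the comparison with its neighbours is a description and no evidence that the difference is confined to it. Its scaffold, Nitab4.5_0002055, carries 17 other gene models, of which 15 had enough counts to be tested. None of the 15 was called YT-higher or TT-higher at all 6 times. The shares of all genes tested, 0.649% and 0.425%, are so low that 0 of 15 is no result about these neighbours. At any time 4 were called, and the share of all genes called at any time was not counted. At each single time 13 to 15 of the 15 were not called. Between 3.9% and 6.74% of all genes tested were called in either direction at a single time. The median log2 difference of the 15 lay between -0.04 and 0.15 at the 6 times, where the median of all genes lay between -0.02 and 0.01. The nearest gene, Nitab4.5_0002055g0150, 39.7 kb away, averaged 27.9 TPM in YT and 21.9 TPM in TT and had log2 differences of -0.04 to 0.59, with no call. Nitab4.5_0002055g0170, 102.8 kb away and as abundant as TOM2A in YT, had 123 TPM in YT and 110 TPM in TT and was also not called. On the other side the closest model, Nitab4.5_0001981g0070, lay 544.9 kb away and had 0 counts in all libraries.

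The calls among the genes of the scaffold were farther off and did not recur at all times. Nitab4.5_0002055g0020, 351.2 kb away, was YT-higher at 0.5, 1 and 4 h, with log2 differences of 1.06, 1.78 and 1.37 (edgeR adjusted p = 0.0337, 0.000325 and 0.00408), and had -0.02 at 2 h. Nitab4.5_0002055g0010, 420.2 kb away, was YT-higher at 0.5 h (1.42) and 4 h (1.08), with edgeR adjusted p of 0.00143 and 0.0106. Nitab4.5_0002055g0120 was TT-higher at 0 h (-1.21, edgeR adjusted p = 0.000743) and Nitab4.5_0002055g0090 at 8 h (-1.21, edgeR adjusted p = 0.0414). In a window of 10 genes on each side 15 of 20 genes were tested. Of these 0 were called at all 6 times, again too few genes to set against the shares of 0.649% and 0.425%. At any time 3 were called, for which no share of all genes was counted, and at each single time 14 to 15 were not called.

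**Figure D3:**
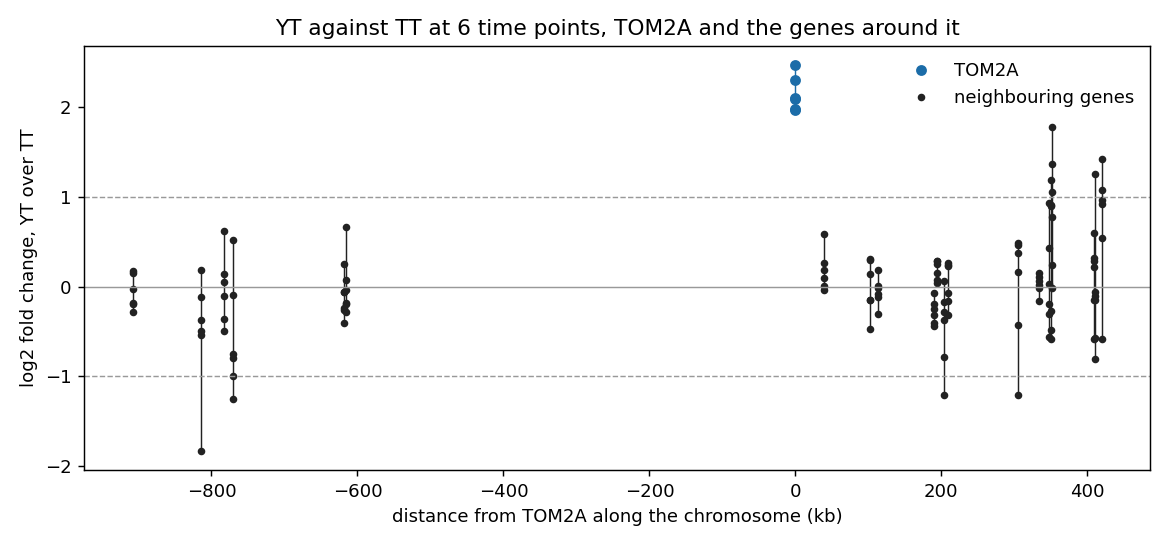
Log2 fold change of YT over TT at the 6 time points (6 points per gene, joined by a line) against the distance from TOM2A in kb, for TOM2A and the tested genes of its scaffold and of 10 genes to each side; dashed lines mark a log2 fold change of 1 in size. TOM2A, which was chosen for this difference, lies at 1.97 to 2.47, and no point of another gene is above 1.78.

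Along the whole of chromosome 23, 1275 of 1869 genes were tested. TOM2A was 1 of 4 called YT-higher at all 6 times, and 7 were TT-higher at all 6, against 0.649% and 0.425% of all genes tested. The nearest of these, Nitab4.5_0001492g0060, lay 1.19 Mb away and was TT-higher, and the nearest other YT-higher gene, Nitab4.5_0000209g0100, lay 7.61 Mb away.

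TOM2A differed from most genes that were higher in YT in being well expressed in both cultivars. Of the 154 genes called YT-higher at all 6 times, 86 had a mean under 1 TPM in TT and 21 reached 10 TPM there, whereas TOM2A had 116 TPM in YT and 22.98 TPM in TT. The 154 genes had medians of 13.1 TPM in YT and 0.696 TPM in TT. Averaged over the 6 times, the log2 difference of TOM2A was 2.15, which ranked 122nd of the 154, where the median was 3.91. These values come from the contrast that chose the gene and are a description.

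The study chose the hub genes of the brown module on these samples, so that list is not independent evidence of direction. Its 49 members other than TOM2A comprised 33 that were called higher in YT and 10 called higher in TT at all 6 times, and 6 that were neither, where 0.649% and 0.425% of all genes tested were called so. Among the 33, 25 had a mean of at least 1 TPM in TT, as TOM2A did, and 8 were under 1 TPM. In level, 5 of the 33 exceeded the TT level of TOM2A and 4 exceeded its YT level. The last were the RD22-like Nitab4.5_0001133g0020, with 668.9 TPM in YT and 78.1 TPM in TT, the ribosomal protein L6 gene Nitab4.5_0000143g0390, with 476.5 TPM in YT and 98.2 TPM in TT, the PDF1-like Nitab4.5_0000446g0080 and the cystatin gene Nitab4.5_0001735g0110. Under cold, 2 of the 49 were called at 1 or more times in YT and 8 in TT, against 22.4% and 29.7% of all genes tested, and 39 were called in neither cultivar, as was TOM2A. Many of the hubs lie together, 12 on scaffold Nitab4.5_0000143 of chromosome 11 and 4 on Nitab4.5_0001740 of chromosome 17, while TOM2A is 1 of 23 that stand alone on their scaffold.

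**Figure D4:**
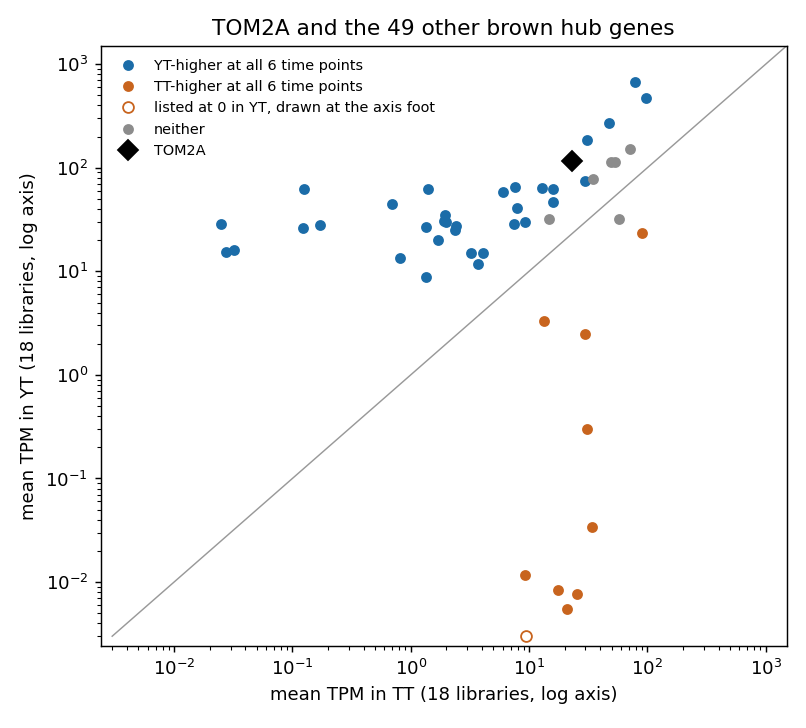
Mean TPM over 18 libraries in YT (vertical log axis) against that in TT (horizontal log axis) for TOM2A (diamond, 116 TPM in YT and 22.98 TPM in TT) and the 49 other hub genes of the brown module, coloured by whether they were YT-higher or TT-higher at all 6 times. The diagonal marks equal levels, and 1 gene listed at 0 in YT is drawn at the foot of the axis.

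Over the 36 libraries, the genes most like TOM2A in log2 CPM followed the same split between cultivars. The highest Pearson correlations were those of Nitab4.5_0001740g0030, an unknown protein (r = 0.986), the HIT-type zinc finger gene Nitab4.5_0001740g0070 (0.984), Nitab4.5_0000143g0610 (0.984), the PII (GLB1) gene Nitab4.5_0000363g0020, whose product senses nitrogen and carbon status (0.983), and the protein phosphatase 2C gene Nitab4.5_0000363g0030 (0.982). Their levels were unlike that of TOM2A. Nitab4.5_0001740g0070 had 28.6 TPM in YT and 0.0249 TPM in TT, and Nitab4.5_0000363g0020 had 45.0 TPM in YT and 0.691 TPM in TT. The lowest correlations were those of Nitab4.5_0002315g0030 (-0.988), like ASB1, an anthranilate synthase subunit of tryptophan synthesis, of Nitab4.5_0000051g0340 (-0.985) and of Nitab4.5_0002315g0130 (-0.983), genes near 0 TPM in YT. The hub gene like TIL, a temperature-induced lipocalin (Nitab4.5_0002315g0020), followed at -0.983, with 0.00764 TPM in YT and 25.3 TPM in TT.

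These correlations describe 36 libraries that share 2 genotypes, and they carry no test. Within the 18 libraries of YT the 5 most alike genes had an r of 0.13 to 0.726 with TOM2A, and within the 18 of TT 0.0971 to 0.382. These 5 genes averaged only 0.0249 to 0.691 TPM in TT, so their r there rests on values near 0 and says little about a shared course. Of the hubs, 8 YT-higher ones were under 1 TPM in TT and several TT-higher ones were near 0 TPM in YT, which also bears on the medians that follow. Over all 49 other hubs the median size of r was 0.366 within YT and 0.218 within TT, although 36 of them had an r above 0.9 and 11 below -0.9 over all libraries, as did 130 and 76 of the 23740 genes.

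With the mean of each cultivar taken out, so that only the time course over the 12 group means was left, other genes came to the front. The highest r were those of Nitab4.5_0000188g0340 (0.92), Nitab4.5_0000662g0190 (0.918), Nitab4.5_0002321g0070 (0.912), Nitab4.5_0000634g0100 (0.912) and Nitab4.5_0002094g0060 (0.892), none of which has an annotation in the tables used here. The lowest were those of Nitab4.5_0000409g0070 (-0.936), Nitab4.5_0002278g0020 (-0.906) and Nitab4.5_0003187g0060 (-0.897). Of the 5 most alike, Nitab4.5_0000188g0340 rose in TT at 8 h by a log2 fold change of 2.80 (edgeR adjusted p = 4.12e-06) and had 0.61 in YT (edgeR adjusted p = 0.26), and Nitab4.5_0000634g0100 had 0.67 in TT (edgeR adjusted p = 0.00424) and -0.04 in YT. In TT at 8 h Nitab4.5_0000662g0190, Nitab4.5_0002321g0070 and Nitab4.5_0002094g0060 had 0.57, 0.98 and 1.82 (edgeR adjusted p = 0.121, 0.00575 and 0.0527). All 5 were picked for following the course of TOM2A, so a rise in TT was built into the choice and these p-values are no evidence of it. All of these r rest on 12 points, in which both genes come from the same libraries and share their depth, and they are a description.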

How the data were processed

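Poly(A) RNA of leaves was sequenced by the authors, who checked reads with FastQC 0.11.5, trimmed with Trim Galore 0.6.4, aligned with HISAT2 2.0.5, dropped those of mapping quality below 20 with SAMtools 1.9 (so reads that match several places equally well are mostly lost) and counted reads per gene on the Nitab-v4.5 models with featureCounts 1.6.4. The deposited counts are not normalized. The deposited TPM are the authors' StringTie 1.3.4d values, scaled for length and depth. Libraries were grouped from the labels, and 0 columns of values belonged to no sample.

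edgeR 4.0.16 (R 4.3.3) was run on the counts. filterByExpr kept 23740 genes, libraries were scaled with TMM factors of 0.797 to 1.18, and 1 quasi-likelihood model with a term per group was fitted to all 36 libraries, with two-sided tests of 21 contrasts and p-values adjusted by Benjamini-Hochberg over all genes tested. A prior count of 2 entered log2 CPM. The Methods name DESeq2, which served as an alternative (1.42.0), beside DESeq2's size factors in edgeR, no expression filter, only the libraries compared, the replicate number as a block, each library left out in turn, and limma 3.58.1 on log2(TPM + 1) or log2(TPM + 0.1) for genes with a mean of at least 1 TPM or for all genes. Library totals without TMM were added after seeing the data. Scripts were tested on simulated data. Plots were drawn with matplotlib 3.10.9 in Python 3.11.15.

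TOM2A, its neighbours and the hub list were chosen with earlier results of these data known. The genes named are TOM2A, those of its scaffold, the nearest gene to each side, the genes with the 5 highest and 3 lowest r over 36 libraries and over the 12 centred group means, and the hubs with the 3 highest and 3 lowest r. The other hubs named, the 2 YT-higher and TT-higher genes nearest on the chromosome, and Nitab4.5_0002055g0170 as an example of a like level, were picked after their values were seen. Other genes of the tobamovirus and tetraspanin list could not be named, since 0 IDs were paired with such a name here, and no ID matched the RefSeq gene table. The labels give growth at 22 °C by day and 20 °C by night, and the Methods 26 °C and 24 °C. Replicates of a group differed by more than counting noise (mean chi-squared per gene of 16.1 to 102 over 36 pairs). Labels call them biological replicates.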

Additional observations from a re-analysis of the deposited data

Results flagged for a closer look

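At 2 h of cold the libraries of the cultivars lay on opposite sides of 0 h in CPM. All 3 YT libraries lay below the 3 YT libraries at 0 h, and all 3 TT libraries lay above the 3 TT libraries at 0 h, as for 0.746% of the genes tested. The difference between the responses was -0.49 on the log2 scale (SE 0.18), and by edgeR's quasi-likelihood test its adjusted p was 0.127 (unadjusted 0.0118), so it did not pass the threshold. Neither response passed alone, with edgeR adjusted p of 0.292 in YT and 0.108 in TT. On the deposited TPM the YT libraries at 2 h again lay below those at 0 h, but the TT libraries at 2 h overlapped those at 0 h.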

How the results depend on the processing

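Over 45 settings, no cold response and no interaction of TOM2A was called. In size they reached at most 0.54 and 0.79, under the log2 limit of 1, so no adjusted p could have made a call. YT over TT stayed at or above a log2 fold change of 1.79 at all 6 times. The counts of neighbours called at all 6 times stayed at 0, and those of the other hubs lay between 32 and 35 YT-higher and at 10 TT-higher. With library totals without TMM, YT over TT was 2.70 at 0 h and 2.16 at 2 h. The YT response at 1 h then turned to 0.020. With limma on log2(TPM + 1) YT over TT was 2.80 at 0 h, 2.27 at 1 h and 2.17 at 2 h, with the same values when all genes with a TPM above 0 were kept, and on log2(TPM + 0.1) it was 2.86, 2.31, 2.22 and, at 4 h, 2.22. These scalings also moved the median of all genes, by 0.23 at 0 h without TMM and by 0.32 with TPM, and relative to that median TOM2A was at 2.47 and 2.48. Leaving out 1 library moved the YT response between -0.12 and 0.078 at 0.5 h, between -0.082 and 0.0023 at 1 h, between -0.060 and 0.0086 at 4 h and between -0.26 and 0.041 at 8 h, changes of sign around 0 in a response that was not called.

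The adjusted p of the TT response at 8 h was under 0.05 in 44 of 45 settings, and that at 4 h in 20. For the TT response at 1 h and the interaction at 8 h it was so in 5 settings each. For the TT response at 0.5 h, the YT responses at 2 and 8 h and the interaction at 2 h it was so in 3 each. Without TMM the interaction at 8 h was -0.72 (edgeR adjusted p = 0.00801), where the median of all genes was -0.24. Libraries of equal replicate number in different groups were about as alike as those of unequal number. Their deviations from group means had a median r of 0.00322 over 198 pairs of equal number, and 28 were over 0.1. Over 396 pairs of unequal number the median r was -0.00187, and 59 were over 0.1. With the replicate number as a block, TOM2A in TT at 8 h had a log2 change of 0.42 (edgeR adjusted p = 0.00991) and the interaction at 8 h -0.49, and no call changed. TOM2A had at least 581 reads in every library, and the largest cold response of the main model, 0.42, was under the log2 limit of 1.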
